A study of Rattus norvegicus with 32 samples.

Results

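The immediate early genes examined here are 10 activity-induced genes listed by symbol: Fos, Fosb, Junb, Egr1, Egr2, Arc, Npas4, Nr4a1, Nr4a3 and Ier2. Of these, 9 had a row among the 22587 genes of the deposited table, and the expression of Ier2 was not analysed here. The animals were Wistar Kyoto rats aged 13 weeks, and hypothalamus and brainstem were each measured by mRNA sequencing of bulk tissue. Every rat had been operated on, with either a sham operation or total bilateral adrenalectomy (ADREX), the removal of both adrenal glands and with them the cortex that makes corticosterone and the medulla that makes adrenaline. The labels do not mention a replacement steroid for ADREX rats. After surgery the rats were exposed for 4 hours in the morning to filtered air or to 0.8 ppm ozone, an oxidant gas, and both tissues were frozen directly afterwards. The resulting 8 groups were sham air (libraries 1 to 4 in each tissue), sham ozone (17 to 20), ADREX air (65 to 68) and ADREX ozone (81 to 84), each in brainstem and in hypothalamus and each with 4 libraries. No source used here states that each library is a separate animal, so p-values measure the spread between libraries.

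Immediate early genes are transcribed within minutes of a stimulus without new protein synthesis, and most of their transcripts are short-lived. In neurons, calcium entry and growth factor signals reach them through kinases that activate CREB, which binds cAMP response elements, and serum response factor with its ternary complex partners, which bind CArG boxes. In the hypothalamus and brainstem, Fos protein and mRNA are widely used as markers of neurons recently activated by stress, blood-borne or visceral signals, and glucocorticoids are known to restrain some of these responses. The members fall into 4 classes: AP-1 subunits (Fos, Fosb, Junb), zinc finger factors (Egr1, Egr2), the synaptic and neuron-restricted genes Arc and Npas4, and orphan nuclear receptors (Nr4a1, Nr4a3).

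The promoters of the members carry these elements to different degrees, and 3 of them are shown. They were picked because Junb with Nr4a1 and Junb with Egr2 had the highest Pearson r among pairs of members over all 32 libraries. The values are given with the library deviations, where other settings give other leading pairs. A part of these elements in the correlations was not tested. They are RefSeq promoter sequence of build GRCr8, not the rn6 build named for the counts, written 5′ to 3′ on the strand of the gene, with capitals for TGACG or its complement CGTCA (the cAMP response core) and, in Egr2, also for the CArG box. The Nr4a1 stretch is chr7:134259888-134260137 on the plus strand, bases -250 to -1 before the gene start, with matches starting at -246, -226, -82 and -53.
Nr4a1: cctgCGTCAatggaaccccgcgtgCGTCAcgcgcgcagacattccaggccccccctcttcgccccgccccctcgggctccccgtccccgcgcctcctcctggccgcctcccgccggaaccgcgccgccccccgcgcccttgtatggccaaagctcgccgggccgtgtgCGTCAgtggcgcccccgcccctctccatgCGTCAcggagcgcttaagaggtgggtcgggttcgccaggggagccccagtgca
The Junb stretch is chr19:40080956-40081125 on the plus strand, bases -170 to -1, with 1 match starting at -155.
Junb: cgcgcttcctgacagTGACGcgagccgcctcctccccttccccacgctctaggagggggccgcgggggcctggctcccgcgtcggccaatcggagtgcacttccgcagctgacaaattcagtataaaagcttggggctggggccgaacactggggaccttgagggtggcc
The Egr2 stretch is chr20:21054442-21054561 on the minus strand, bases -120 to -1, with the CArG box starting at -83 and the TGACG core at -66.
Egr2: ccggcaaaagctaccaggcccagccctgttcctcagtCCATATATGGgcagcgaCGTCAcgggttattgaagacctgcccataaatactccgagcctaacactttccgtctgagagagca
RefSeq promoters matched 7 of the 10 members (Fosb, Junb, Egr1, Egr2, Npas4, Nr4a1 and Ier2). Within 250 bases before the start and on both strands, TGACG lay in 5 of these 7 (Junb, Egr1, Egr2, Nr4a1 and Ier2) and in 18.2% of 33469 promoters. The full element TGACGTCA, which contains that core and is counted in both, lay in 1 of 7 (Ier2) and in 1.59% of all. A CArG box lay in 2 of 7, Egr1 and Egr2, and in 1.5% of all. The AP-1 site TGANTCA and the NR4A response element AAAGGTCA lay in 0 of 7, against 6.34% and 1.24% of all promoters. Such matches describe the letters of the window and are not evidence of binding.

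Depth was 6.44 to 12.4 M reads per library, and the members were counted from few of them: a library held 25 to 140 reads of Fos, 9 to 87 of Fosb and 77 to 405 of Egr1, so counting error is part of every spread below. The tissue labels held against regional markers: 8 hypothalamic markers summed to 4881 to 6801 normalized counts in hypothalamus libraries and 176 to 765 in brainstem ones, and 8 hindbrain markers to 43.3 to 177 and 4531 to 5606, with Hoxa4 at 0 in all 32 libraries. The 4 neuron markers summed to 29958 to 34273 in the hypothalamus and their group ranges overlapped between air and ozone. The 3 measured endothelial markers did not overlap in sham hypothalamus (1142 to 1295 in air, 863 to 1012 in ozone), nor the 4 microglial markers in sham brainstem (508 to 582 and 344 to 440); the part of these differences in the values of the immediate early genes was not tested. Liver transcripts exceeded 2000 RPM, a share of the library's reads, in 3 libraries (brainstem sham ozone 18, hypothalamus sham air 2 and hypothalamus ADREX air 68) and 1000 in a further one, hypothalamus sham ozone 18. Brainstem ADREX ozone 81, the deepest library, lay below the other 15 brainstem libraries in oligodendrocyte (246355 against 323998 to 422510), neuron (23756 against 26027 to 31410) and hypothalamic markers (176 against 343 to 765), and results that use it are also given without it. In bulk tissue, fewer cells of a type and less RNA per cell cannot be told apart.

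The clearest differences among the immediate early genes were between the tissues, whose cell-type marker sums also differed. Oligodendrocyte markers summed to 110148 to 181611 in hypothalamus and 246355 to 422510 in brainstem. Astrocyte markers summed to 10621 to 16823 and 20102 to 31034, while neuron markers overlapped (29958 to 34273 and 23756 to 31410). The part of cell mix in the tissue differences of these genes was not tested. Fosb and Nr4a3 were higher in hypothalamus than in brainstem in all 4 states of operation and exposure, by 2.06- to 2.88-fold for Fosb and 1.88- to 2.27-fold for Nr4a3 on the log2(value + 1) scale of the tests. Egr1 was higher in 3 of the states, Fos in sham air alone among the 4 tests, and Arc was lower in ADREX air. After ozone, Fos was 1.81-fold lower in the hypothalamus when sham and ADREX rats were averaged, a call close to its threshold. It was the only call of a member for ozone in the main limma fits, which used all libraries without sample weights. DESeq2 called Egr1 as well in this averaged hypothalamus comparison. With sample weights, limma also called Fos in sham brainstem and Fos and Egr1 in sham hypothalamus. For adrenalectomy the main limma fits called no member, and DESeq2 called Fosb in brainstem after ozone. Limma with sample weights called Fosb after ozone in both tissues. The plot of every library shows these levels, which are described next by class and gene.

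**Figure D1:**
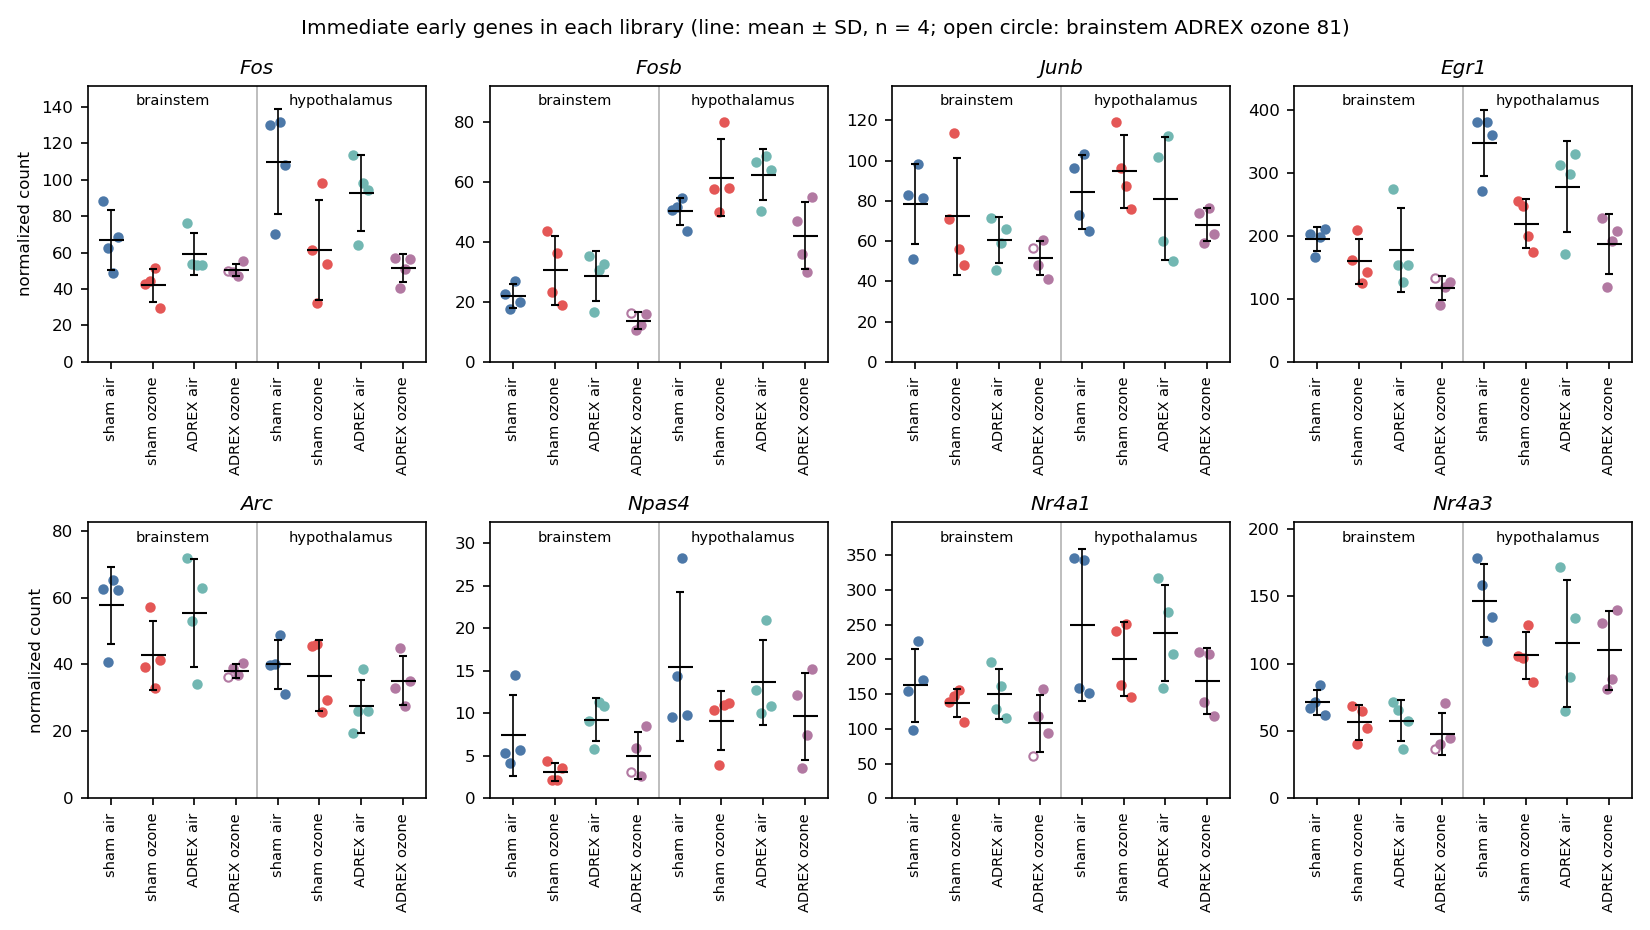
Normalized counts (y axis) of 8 members in each of the 32 libraries, by tissue, operation and exposure; points are libraries, lines the group mean ± SD (n = 4) and the open circle brainstem ADREX ozone 81. Fosb and Nr4a3 sit higher in the hypothalamus than in the brainstem, and hypothalamic Fos and Egr1 sit lower in the ozone groups than in the air groups; Egr2, at 0 to 15.6 counts, is not drawn.

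Fos encodes the prototypical AP-1 subunit, which pairs with Jun proteins. In the hypothalamus its normalized counts were 130.0, 70.0, 132 and 108 in sham air and 61.5, 32.4, 98.3 and 53.8 in sham ozone. In ADREX hypothalamus they were 114, 64.2, 97.9 and 94.5 in air and 57.3, 40.4, 51.3 and 56.3 in ozone. Of the 8 ozone libraries, 7 lay below the lowest of the 8 air libraries, and the exception was sham ozone 19; the ADREX groups did not overlap, while the sham groups did. Means were 109.9 ± 28.7 against 61.5 ± 27.5 in sham and 92.6 ± 20.7 against 51.3 ± 7.72 in ADREX rats (SD, n = 4 each). The log2 difference, ozone minus air, was -0.89 ± 0.28 in sham (limma adjusted p = 0.147) and -0.82 ± 0.28 in ADREX rats (0.586), and neither passed. Averaged over the operations Fos fell by 0.86 ± 0.20 (95% interval -1.27 to -0.44; limma adjusted p = 0.0443), a contrast that shares all its libraries with the other pair.

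The call of hypothalamic Fos rested on the settings, though its size did not. EdgeR's quasi-likelihood test gave a log2 difference of -0.84 with adjusted p = 0.0519, limma with no filter on low genes 0.0659 and DESeq2 0.00329, and the adjusted p ranged from 0.00329 to 0.1001 over all alternatives. Leaving out single libraries moved the difference between -0.99 and -0.72, and 13 of 16 such fits missed the threshold. Those fits had limma adjusted p = 0.0975, 0.1001 and 0.0879 without hypothalamus sham air 1, 3 and 4, then 0.0819, 0.0552 and 0.0748 without sham ozone 17, 18 and 20. The adjusted p was 0.0888, 0.0634 and 0.0733 without ADREX air 65, 67 and 68, and 0.0621, 0.0637, 0.0705 and 0.0631 without ADREX ozone 81, 82, 83 and 84. Without sham ozone 19, the comparison in sham rats passed, with a log2 difference of -1.15 and limma adjusted p = 0.0419 (0.0344 to 0.362 over the alternatives).

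In the brainstem, Fos counted 88.3, 62.5, 48.7 and 68.8 in sham air and 42.5, 44.3, 51.5 and 29.5 in sham ozone. ADREX libraries held 76.2, 53.8, 53.4 and 53.0 in air and 49.8, 49.6, 47.3 and 55.2 in ozone. All 8 ozone libraries lay under the median of the 8 air libraries (58.2), but only 4 lay below every air library, and both pairs of groups overlapped. The log2 difference was -0.66 ± 0.20 in sham rats (limma adjusted p = 0.187), -0.21 ± 0.20 in ADREX rats (0.853) and -0.43 ± 0.14 on average (0.313), so none passed under limma. With sample weights the sham difference did (limma adjusted p = 0.0322; 0.0322 to 0.603 over the alternatives). Between tissues, Fos was higher in hypothalamus in sham air by 0.69 ± 0.25 (limma adjusted p = 0.0342). It did not pass in sham ozone (0.46 ± 0.25, 0.184) or ADREX air (0.63 ± 0.25, 0.0633), and in ADREX ozone the tissue means were 51.3 and 50.5 with a 95% interval of -0.50 to 0.52 for the log2 difference. The sham air call was lost without brainstem sham air 2, 3 or 4 (limma adjusted p = 0.0660, 0.129 and 0.0532), without hypothalamus sham air 1, 3 or 4 (0.105, 0.109 and 0.0633) and with no filter (0.0512), in a range of 0.00380 to 0.129 over the alternatives. In turn, sham ozone passed without hypothalamus sham ozone 18 (limma adjusted p = 0.0240; 0.0144 to 0.597 over the alternatives). ADREX air passed without brainstem ADREX air 65 (limma adjusted p = 0.0388), hypothalamus sham air 2 (0.0496), sham ozone 18 (0.0337) or 19 (0.0377), or ADREX air 66 (0.0254). With all libraries it also passed under DESeq2 (adjusted p = 0.0416), limma sample weights (0.0157) and limma on the compared groups alone (0.0385), in a range of 0.0157 to 0.185.

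Fosb, whose splice form ΔFosB is long-lived and accumulates with repeated activation, had the largest difference between tissues of the 7 tested members in each state; the counts here join its splice forms. Hypothalamus libraries held 50.5, 51.8, 54.6 and 43.7 in sham air and 57.7, 50.1, 79.9 and 57.9 in sham ozone. ADREX hypothalamus held 66.7, 50.2, 68.6 and 64.1 in air and 47.0, 35.9, 30.001 and 55.1 in ozone. Brainstem values were lower throughout. They were 22.6, 17.7, 26.97 and 20.1 in sham air, 43.6, 23.2, 36.2 and 18.9 in sham ozone, 35.3, 16.6, 30.7 and 32.5 in ADREX air and 16.2, 10.6, 12.3 and 15.9 in ADREX ozone. Within each state the tissues did not overlap. The log2 difference, hypothalamus minus brainstem, was 1.17 ± 0.24 in sham air, 1.04 ± 0.24 in sham ozone, 1.14 ± 0.24 in ADREX air and 1.53 ± 0.24 in ADREX ozone, with limma adjusted p = 0.000350, 0.00144, 0.000559 and 1.16e-05. All 4 calls held when each of the 32 libraries was left out in turn.

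Within tissues Fosb was lowest where ADREX and ozone were combined. In the brainstem, ADREX ozone (13.8 ± 2.75, SD, n = 4) did not overlap ADREX air (28.7 ± 8.34) or sham ozone (30.5 ± 11.4), although its highest library, 81 at 16.2, lay just under the lowest ADREX air library, 66 at 16.6. The log2 difference was -0.98 ± 0.29 for ozone in ADREX rats (limma adjusted p = 0.801), 0.40 ± 0.29 for ozone in sham rats (0.928) and -1.04 ± 0.29 for ADREX against sham in ozone (0.0855). None passed in the main limma fits. ADREX against sham in ozone was the nearest, with DESeq2 adjusted p = 0.0420 and 0.0285 under limma with sample weights, in a range of 0.0285 to 0.275 over the alternatives. The hypothalamus gave -0.59 ± 0.19 for ozone in ADREX rats (limma adjusted p = 0.586), 0.27 ± 0.19 in sham rats (0.596) and -0.55 ± 0.19 for ADREX against sham in ozone (0.199). This last difference passed with limma sample weights (-0.70, adjusted p = 0.0191), and in 0 of 16 fits with a library left out. The interaction of ozone and ADREX, the test of whether ozone differences depend on the operation, was -1.38 ± 0.41 in brainstem and -0.86 ± 0.27 in hypothalamus. It had unadjusted p = 0.00391 and 0.00557 but limma adjusted p = 0.397 and 0.520 over all genes. These contrasts share the ADREX ozone and sham ozone libraries and are not independent of each other.

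Junb, an AP-1 subunit of the Jun family, passed in no comparison in the main limma fits. In the brainstem it counted 82.9, 51.0, 98.5 and 81.2 in sham air, 70.9, 114, 55.9 and 48.4 in sham ozone, 71.7, 45.5, 59.1 and 66.01 in ADREX air and 56.7, 48.4, 60.5 and 41.4 in ADREX ozone. The hypothalamus held 96.3, 72.8, 103 and 65.1 in sham air, 119, 96.2, 87.3 and 76.2 in sham ozone, 102, 60.2, 112 and 49.97 in ADREX air and 74.2, 59.3, 76.3 and 63.3 in ADREX ozone. Brainstem sham ozone 18, a library with liver transcripts over the limit, was the highest brainstem library, and all groups compared overlapped. The largest difference within a tissue was -0.46 ± 0.23 for ADREX against sham in hypothalamus after ozone (limma adjusted p = 0.466). Between tissues the sham ozone difference of 0.44 ± 0.25 (limma adjusted p = 0.208) became 0.69 without brainstem sham ozone 18 and then passed (0.0442; 0.0323 to 0.497 over the alternatives).

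Egr1 encodes a zinc finger factor induced by many neuronal stimuli, and its mean was lower after ozone in both tissues without passing in the main limma fits. Its counts in the hypothalamus were 380.2, 271, 381 and 360.3 in sham air and 255, 248, 199 and 175 in sham ozone. ADREX hypothalamus held 313, 172, 299 and 330.3 in air and 229, 119.5, 193 and 208 in ozone. Of the 8 air libraries, 7 lay above every ozone library, with ADREX air 66 as the exception, and the sham groups did not overlap. Means were 348 ± 52.2 against 219 ± 38.9 in sham and 278 ± 72.4 against 187 ± 47.5 in ADREX rats (SD, n = 4). The log2 difference was -0.67 ± 0.22 in sham (limma adjusted p = 0.177), -0.57 ± 0.22 in ADREX (0.586) and -0.62 ± 0.16 averaged over operations, which missed the threshold at 0.0615. The sham difference passed with limma sample weights (-0.81, adjusted p = 0.0103), and in 0 of 16 fits with a library left out. The averaged difference passed under DESeq2 (adjusted p = 0.00509), with limma sample weights (0.0101) and without ADREX air 66 (0.0205), in a range of 0.00509 to 0.126 over the alternatives.

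In the brainstem Egr1 counted 202, 167, 199 and 210.3 in sham air and 161, 209, 126 and 143 in sham ozone. ADREX brainstem held 275, 153, 126 and 154 in air and 133, 90.9, 118 and 127 in ozone, and library 65 of ADREX air was the highest of the tissue. Ozone groups overlapped air groups. The log2 difference was -0.30 ± 0.21 in sham, -0.54 ± 0.21 in ADREX and -0.42 ± 0.15 on average (limma adjusted p = 0.921, 0.801 and 0.362). Hypothalamus exceeded brainstem by 0.83 ± 0.22 in sham air, 0.67 ± 0.22 in ADREX air and 0.64 ± 0.22 in ADREX ozone, with limma adjusted p = 0.00485, 0.0249 and 0.0271. In sham ozone the difference of 0.46 ± 0.22 did not pass (0.131). The sham air call held without each of the 32 libraries. The ADREX air call was lost without brainstem ADREX air 66, 67 or 68 (limma adjusted p = 0.0646, 0.110 and 0.0633) or hypothalamus ADREX air 65, 67 or 68 (0.0790, 0.0666 and 0.0860; 0.00208 to 0.110 over the alternatives). The ADREX ozone call was lost without brainstem ADREX ozone 82 (limma adjusted p = 0.0927) or hypothalamus ADREX ozone 81, 83 or 84 (0.0950, 0.0584 and 0.0789; 0.00469 to 0.0950 over the alternatives).

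Egr2, a related factor best known from Schwann cells and hindbrain segmentation, lay between 0 and 15.6 normalized counts and failed the minimum mean of 10 in both tissues, so it was not tested. The highest group mean was 6.90 ± 5.95 (SD, n = 4) in brainstem sham air, where library 3 alone reached 15.6. Group ranges overlapped between all neighbours in the order of means. The depth of a few reads per library sets no useful limit on differences in this gene.

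Arc, which encodes a synaptic protein that regulates glutamate receptor trafficking, was the one tested member with lower values in hypothalamus than in brainstem. Brainstem libraries held 62.5, 40.6, 65.3 and 62.1 in sham air, 39.3, 57.3, 32.9 and 41.3 in sham ozone, 71.7, 53.0, 34.1 and 62.8 in ADREX air and 36.1, 38.9, 36.8 and 40.4 in ADREX ozone. The hypothalamus held 39.7, 40.3, 48.9 and 31.2 in sham air, 45.4, 46.1, 25.7 and 29.5 in sham ozone, 19.6, 26.1, 38.5 and 26.1 in ADREX air and 32.9, 44.9, 27.5 and 35.2 in ADREX ozone. In ADREX air the tissue means were 27.6 ± 7.90 and 55.4 ± 16.1 (SD, n = 4), with overlap from brainstem ADREX air 67. The log2 difference of -0.97 ± 0.24 passed there (limma adjusted p = 0.00206) and held without each library. It was -0.51 ± 0.24 in sham air (limma adjusted p = 0.103), where it passed only without brainstem sham air 2 among the left-out libraries (0.0414) and with sample weights (0.0260; up to 0.265 over the alternatives). All 8 brainstem ozone libraries lay below the air median of 62.3, and the averaged ozone difference was -0.45 ± 0.16 (limma adjusted p = 0.362). Ozone in ADREX hypothalamus gave 0.36 ± 0.24 (0.627), opposite in sign to the -0.54 ± 0.24 for ADREX against sham in air (0.871); both use the ADREX air libraries and neither passed.

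Npas4 encodes a neuron-restricted factor that responds to calcium entry. It was scarce, at 2 to 30 reads per library, and passed the minimum only in the hypothalamus fit. Hypothalamus values were 9.63, 14.4, 28.2 and 9.81 in sham air, 10.4, 3.93, 11.03 and 11.2 in sham ozone, 12.8, 10.03, 20.9 and 10.9 in ADREX air and 12.2, 3.59, 7.50 and 15.2 in ADREX ozone. Brainstem values were 5.39, 4.17, 14.5 and 5.74 in sham air, 4.36, 2.18, 2.19 and 3.54 in sham ozone, 9.10, 5.80, 11.4 and 10.8 in ADREX air and 3.11, 5.90, 2.63 and 8.50 in ADREX ozone. Sham air 3 held the highest value in each tissue. In the hypothalamus the averaged ozone difference was -0.61 ± 0.32 (limma adjusted p = 0.300), and ozone and air groups overlapped. With the filter removed, brainstem Npas4 could be fitted too and had an averaged ozone difference of -0.90 ± 0.29 (unadjusted p = 0.00621, limma adjusted p = 0.376), with 5 of 8 ozone libraries below all 8 air libraries. In the same fit without a filter, hypothalamus exceeded brainstem in sham ozone by 1.26 ± 0.43 (limma adjusted p = 0.0383).

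Nr4a1 (Nur77) and Nr4a3 (Nor-1) encode orphan nuclear receptors; in the stress axis Nr4a1 is known to act on the promoters of Crh and Pomc. Nr4a1 counted 345, 159, 343 and 152 in hypothalamus sham air, 240.3, 163, 252 and 146 in sham ozone, 318, 158, 268 and 209 in ADREX air and 210.4, 138, 208 and 118 in ADREX ozone. Brainstem values were 155, 98.9, 226 and 170.1 in sham air, 139, 147, 156 and 109.8 in sham ozone, 197, 128, 161 and 116 in ADREX air and 61.0, 119, 158 and 93.5 in ADREX ozone. Sham air in hypothalamus held a high pair, libraries 1 and 3, and a low pair, 2 and 4, and the group SD was 109 on a mean of 249.8. Nr4a1 passed in no comparison in the main limma fits. The tissue difference was 0.57 ± 0.30, 0.51 ± 0.30, 0.64 ± 0.30 and 0.68 ± 0.30 in sham air, sham ozone, ADREX air and ADREX ozone (limma adjusted p = 0.163, 0.234, 0.125 and 0.0850). In ADREX air it passed with sample weights (0.84, limma adjusted p = 0.0347; 0.0347 to 0.327 over the alternatives). In ADREX ozone it passed without brainstem ADREX ozone 83 (limma adjusted p = 0.0305; 0.0287 to 0.308 over the alternatives). Averaged ozone differences were -0.37 ± 0.21 in hypothalamus and -0.36 ± 0.19 in brainstem (limma adjusted p = 0.343 and 0.643), and all 8 brainstem ozone libraries lay under the air median of 158.

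Nr4a3 separated the tissues. Hypothalamus libraries held 178, 158, 117 and 135 in sham air, 106, 104, 129 and 86.3 in sham ozone, 172, 65.2, 90.4 and 134 in ADREX air and 131, 80.9, 88.8 and 139.5 in ADREX ozone. Brainstem libraries held 66.8, 71.9, 84.01 and 62.1 in sham air, 68.7, 40.6, 64.7 and 51.9 in sham ozone, 71.7, 65.4, 36.4 and 57.4 in ADREX air and 36.7, 40.1, 71.0 and 44.6 in ADREX ozone. The tissues overlapped in ADREX air alone, where hypothalamus 66, at 65.2, lay within the brainstem range. The log2 difference was 1.03 ± 0.26, 0.91 ± 0.26, 0.94 ± 0.26 and 1.18 ± 0.26, with limma adjusted p = 0.00237, 0.00708, 0.00589 and 0.000562. All 4 calls held without each of the 32 libraries, but the sham ozone call was lost without the 4 libraries over 1000 liver RPM (limma adjusted p = 0.0682; 0.00242 to 0.0682 over the alternatives). Within tissues no contrast passed; ozone in sham hypothalamus gave -0.46 ± 0.26 (limma adjusted p = 0.488).

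**Figure D2:**
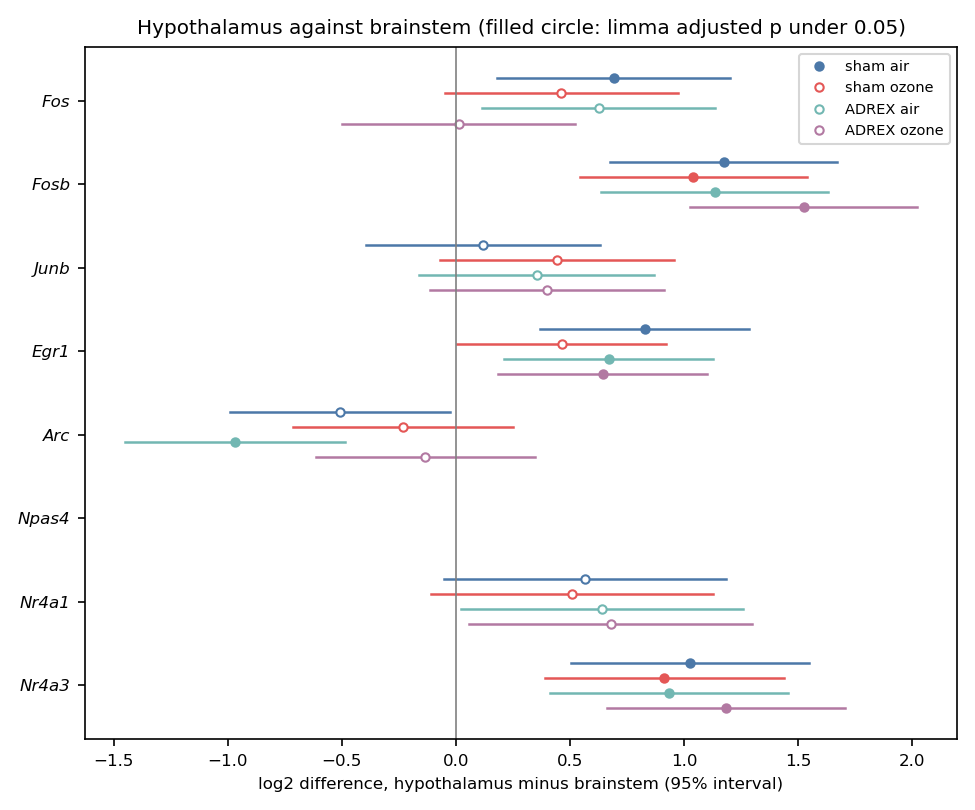
Log2 difference on the log2(value + 1) scale, hypothalamus minus brainstem (x axis), of each tested member in the 4 states; circles are limma estimates, bars 95% intervals and filled circles limma adjusted p under 0.05. Fosb and Nr4a3 are filled in all 4 states, Egr1 in 3, Fos in sham air and Arc, on the negative side, in ADREX air; Npas4 was not tested.

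Many genes differed between the tissues, so the members' calls are read against that share. In sham air 4 of 7 tested members were called, all higher in hypothalamus, while limma called 31% of 14533 genes (16% higher). In sham ozone 2 of 7 were called, both higher, beside 27.4% of all genes (14.3% higher). In ADREX air 4 of 7 were called, 3 higher and Arc lower, beside 26.6% of all genes (13.9% higher and 12.7% lower); DESeq2 called 5, with Fos added. In ADREX ozone 3 of 7 were called, all higher, beside 33% of all genes (17.5% higher). Counts of called members under edgeR and DESeq2 were otherwise the same as under limma. Members had a median log2 difference of 0.69 in sham air, 0.46 in sham ozone, 0.64 in ADREX air and 0.64 in ADREX ozone, beside -0.00798 to 0.00631 over all genes. Of the 10 members, Ier2 had no row, and Egr2 and Npas4 did not reach the minimum mean. In the order of the 8 group means, neighbouring groups overlapped for every member except Fosb, where brainstem sham air did not overlap ADREX ozone, and Nr4a3, where hypothalamus sham ozone did not overlap brainstem sham air.

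For ozone, limma called 0 of 8 tested members in sham hypothalamus against 1.59% of 14483 genes, and 0 of 7 in sham brainstem against 0.979% of 14408 genes. In ADREX rats it called 0 members and 0% of genes in both tissues, with 1163 genes at unadjusted p under 0.05 in the hypothalamus and 851 in the brainstem. DESeq2 called 0 and 1 gene there and edgeR 0 in both. At unadjusted p under 0.05, 2 members (Fos and Egr1) were lower in sham hypothalamus beside 6.45% of all genes, and 3 (Fos, Fosb and Egr1) in ADREX hypothalamus beside 3.81%. In brainstem 1 (Fos) was lower in sham rats beside 4.1% of all genes, and 3 (Fosb, Egr1 and Arc) in ADREX rats beside 3.29%; no member was higher. EdgeR and DESeq2 called 0 members in these 4 comparisons. Averaged over operations, 1 of 8 members was called in the hypothalamus, where 1.27% of genes were, and 0 of 7 in the brainstem, where 0.326% were and where Fos, Egr1 and Arc were lower at unadjusted p under 0.05, beside 4.29% of all genes. EdgeR gave 0 called members in both tissues and DESeq2 2 in the hypothalamus, Fos and Egr1, and 0 in the brainstem. Most members shared a direction: 7 of 8 tested members in hypothalamus and 7 of 7 in brainstem had a negative averaged difference. Their medians were -0.30 and -0.36, and 50.9% and 52.4% of all genes had a negative difference. Members vary together within groups, as described below, so their signs are not separate observations. The groups did not overlap, with ozone lower, for Egr1 in sham hypothalamus (4.83% of genes), Fos in ADREX hypothalamus (1.84%) and Fosb in ADREX brainstem (1.13%).

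**Figure D3:**
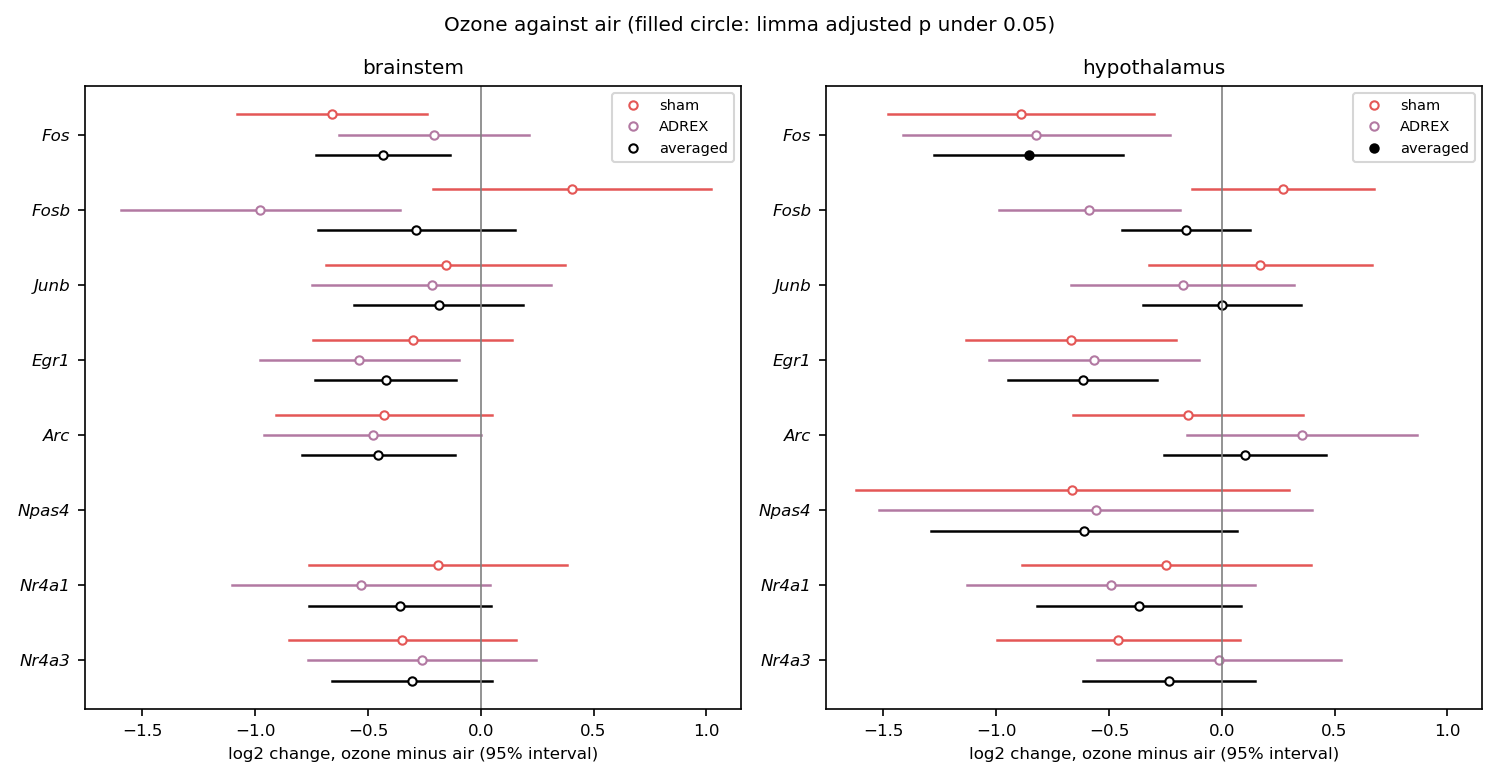
Log2 difference on the log2(value + 1) scale, ozone minus air (x axis), of each tested member in sham rats, ADREX rats and averaged over both, in brainstem (left) and hypothalamus (right); circles are limma estimates, bars 95% intervals and a filled circle limma adjusted p under 0.05. Most circles lie left of 0, Fosb lies on opposite sides in sham and ADREX rats, and averaged Fos in hypothalamus is the filled one.

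For adrenalectomy, no member passed in the main limma fits. In air, limma called 0 of 7 in the brainstem and 0% of genes (545 at unadjusted p under 0.05, none of them a member; edgeR called 0 genes and DESeq2 16), and 0 of 8 in the hypothalamus against 0.0138% of genes. Arc alone had unadjusted p under 0.05 in the latter (0.0382). After ozone limma called 0 of 7 members in brainstem and 0 of 8 in hypothalamus, against 2.44% and 2.24% of genes. Fosb was then the one member under 0.05 before adjustment in each tissue. DESeq2 called brainstem Fosb after ozone, edgeR no member in these 4 comparisons. With sample weights, limma called Fosb after ozone in brainstem (adjusted p = 0.0285) and in hypothalamus (0.0191). In brainstem, ADREX ozone and sham ozone did not overlap for Fosb, as for 3.51% of genes with ADREX lower. The interaction gave 0 called members under limma, edgeR or DESeq2 in either tissue, with 0.201% of genes called in brainstem and 0.138% in hypothalamus, and Fosb had the only unadjusted p under 0.05 among the members in each.

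Leaving out brainstem ADREX ozone 81 left 3 libraries in that group and changed no call among the members. This library held the lowest Nr4a1 value of all 32 (61.0) and the lowest Nr4a3 and Arc of its group, and the highest Fosb and Egr1 of its group. Group means without it were 50.7 for Fos, 12.9 for Fosb, 50.1 for Junb, 112 for Egr1, 38.7 for Arc, 123 for Nr4a1 and 51.9 for Nr4a3. For ozone in ADREX brainstem the log2 difference of Nr4a1 moved from -0.53 ± 0.27 to -0.29 ± 0.25 and that of Nr4a3 from -0.26 ± 0.24 to -0.15 ± 0.25, so these leaned most on library 81. Fosb went from -0.98 ± 0.29 to -1.06 ± 0.32 and Egr1 from -0.54 ± 0.21 to -0.60 ± 0.22 (limma adjusted p = 0.745 for both). Fosb for ADREX against sham after ozone was -1.12 ± 0.32 (limma adjusted p = 0.0717) and its interaction -1.46 ± 0.43 (0.274). Between tissues in ADREX ozone, Fosb stood at 1.61, Nr4a3 at 1.07 and Egr1 at 0.71 (limma adjusted p = 0.00308 for Nr4a3 and 0.0266 for Egr1), and Nr4a1 at 0.44. Over all genes, the count called for ozone in sham brainstem went from 141 to 272, a share of 1.89%, with 0 members among them.

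Within groups, libraries tended to be high or low in several members at once. After each group's mean was subtracted on the log2 scale, 33 of the 36 pairs among 9 members had a positive Pearson r over 32 libraries, with a median of 0.28 and a range of -0.18 to 0.61. Over all pairs of 14533 genes the median was -0.005, with 49.8% above 0. The highest were Junb with Nr4a1 (r = 0.61, Spearman rho 0.65) and Junb with Egr2 (0.60, rho 0.66), the genes whose promoters are printed above, then Fosb with Npas4 (0.52) and Junb with Egr1 (0.51). With the 2 libraries farthest from the median of the first-named gene left out, these were 0.67, 0.58, 0.56 and 0.58. Libraries extreme in the second gene alone, such as Egr2 with its few reads, stayed in. Fos with Egr1 stood at 0.64 in this setting. Negative pairs all held Arc, with Fos (-0.18), Nr4a3 (-0.12) and Fosb (-0.02). The count of positive pairs was 30 of 36 in brainstem and 32 of 36 in hypothalamus, and 33 without brainstem ADREX ozone 81. In brainstem alone the highest pair was Egr1 with Arc (0.75), and Junb with Nr4a1 stood at 0.48. In hypothalamus alone Junb with Nr4a1 was the highest (0.74). These values describe libraries that share depth, scaling and dissection, which were not separated from the genes.

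The libraries with the highest mean deviation over the members were brainstem ADREX air 65 (0.41 on the log2 scale, 9 of 9 members above the group mean) and brainstem sham air 3 (0.40, 8 of 9). The lowest were hypothalamus ADREX air 66 (-0.54, 0 of 9 above) and brainstem ADREX air 66 (-0.42, 1 of 9). The numbers 65 and 66 of ADREX air are thus apart in brainstem, and 66 is low in hypothalamus too, where 65 had 7 of 9 above. Liver-rich libraries did not share a direction: the deviation was 0.24 in brainstem sham ozone 18, -0.12 in hypothalamus sham air 2, -0.26 in hypothalamus sham ozone 18 and -0.03 in hypothalamus ADREX air 68. The mean deviations include Egr2 and Npas4, which have few reads. In brainstem sham air 3 these genes deviated by 1.34 and 1.02, and in brainstem ADREX air 66 by -1.89 and -0.56. The order of libraries without them was not computed.

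**Figure D4:**
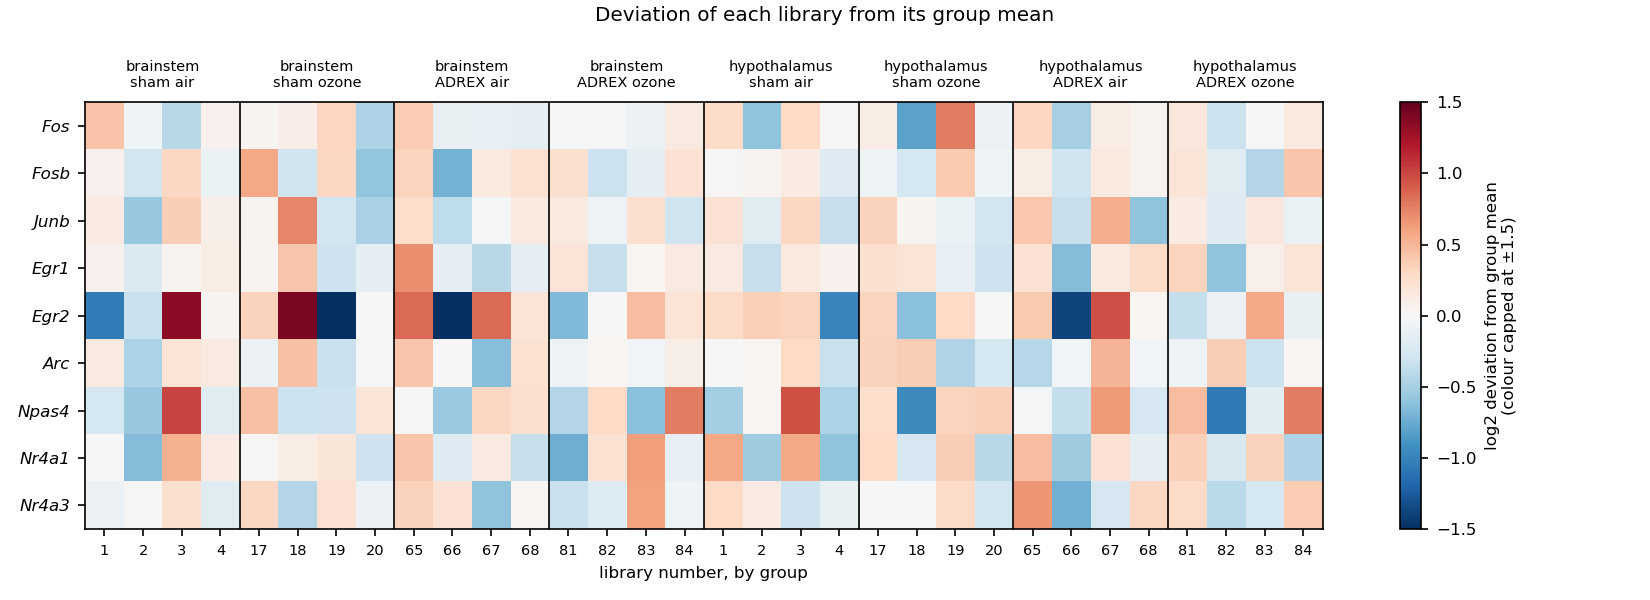
Deviation of each library (x axis, by group and number) from its group mean on the log2(value + 1) scale, for the 9 members in rows; red is above and blue below the mean, with the colour capped at 1.5. Some columns have mostly one colour, as in the extremes brainstem ADREX air 65 (0.41 on average) and hypothalamus ADREX air 66 (-0.54). Others are mixed, as in brainstem sham air 1 with 5 of 9 members above the mean. Egr2 and Npas4, the rows with few reads, have the strongest colours.

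Among 10487 other genes with a mean of at least 50, those most like the mean of the members in these deviations were Hibch, an enzyme of valine breakdown (r = 0.72, rho 0.71), Sik1, a salt-inducible kinase gene that is itself an immediate early gene (0.63, rho 0.64), Gnb2l1, which encodes the ribosomal scaffold RACK1 (0.61, rho 0.48), Ky (0.60, rho 0.46) and Clec11a (0.58, rho 0.52), over 32 libraries. Without the 2 libraries farthest in that mean the values were 0.73, 0.59, 0.46, 0.52 and 0.48. The mean includes Egr2 and Npas4, which have few reads, and likeness without them was not computed.

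No other immediate early gene passed for ozone under limma. Of 27 further genes of this kind, 24 could be tested in brainstem and 25 in hypothalamus. Limma called none for ozone in sham or ADREX rats, averaged over both, or in the interaction. Their median averaged difference was -0.17 in brainstem and -0.03 in hypothalamus, with 2 lower and 2 higher at unadjusted p under 0.05 in each tissue. At that level in sham rats, 2 were lower and 4 higher in brainstem, and 1 lower and 4 higher in hypothalamus. In ADREX rats 1 was lower and 0 higher in each tissue. In brainstem after ozone, 2 of 24 were lower in ADREX than in sham rats, beside 1.25% of all genes called lower. Both are also known to respond to glucocorticoids, and a part of glucocorticoids in these differences was not tested. Per1, a circadian repressor, stood at 144 ± 15.6 in ADREX and 325 ± 76.3 in sham rats (SD, n = 4), a log2 difference of -1.14 ± 0.21 (limma adjusted p = 0.00530) that passed under all 28 alternatives. Zfp36, which encodes the mRNA-destabilizing protein tristetraprolin, stood at 70.6 ± 19.9 and 125 ± 24.99, a difference of -0.84 ± 0.21 (limma adjusted p = 0.0416). Its call was lost under 16 of 28 alternatives (adjusted p 0.00765 to 0.183), among them brainstem ADREX ozone 81 left out (-0.63, limma adjusted p = 0.0791). It was also lost without sham air 2 (limma adjusted p = 0.0557) or 3 (0.0514), sham ozone 17 (0.117), 18 (0.1001) or 19 (0.165), ADREX air 65 (0.0529), 66 (0.0573), 67 (0.0508) or 68 (0.0549), and ADREX ozone 83 (0.0524) or 84 (0.0997).

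Between tissues, some of the other immediate early genes were higher in hypothalamus. Nr4a2, the third receptor of the Nr4a family, was higher in hypothalamus in all 4 states, by 1.75 ± 0.25 in sham air (179 ± 15.99 against 54.3 ± 17.8), 1.82 in sham ozone, 1.43 in ADREX air and 1.65 in ADREX ozone, with limma adjusted p of 4.68e-05 or less. Sik1 was higher by 1.09, 0.80, 0.65 and 0.83 (limma adjusted p = 2.52e-05, 0.00113, 0.00764 and 0.000729), and its ADREX air call was lost without brainstem ADREX air 68 (0.0520; 5.19e-05 to 0.0615 over the alternatives). In all, 2, 6, 5 and 8 of 24 were higher in sham air, sham ozone, ADREX air and ADREX ozone, beside 16%, 14.3%, 13.9% and 17.5% of all genes, so the sham air count lay below that share, and Zfp36 was the one lower gene in each sham state. Its sham air call was lost without brainstem sham air 2 or 4 or hypothalamus sham air 3 (limma adjusted p = 0.0597, 0.0903 and 0.157; 0.00231 to 0.157 over the alternatives). Upstream of these genes, 23 kinases, coactivators and transcription factors gave 4, 5, 6 and 6 higher and 3, 3, 2 and 4 lower, where all genes gave those shares higher and 15.1%, 13%, 12.7% and 15.4% lower. The list was led by Camk2a, a calcium-dependent kinase of forebrain neurons (2.56 ± 0.18 in sham air), and Mef2c, a transcription factor (1.42 ± 0.17), with the kinase Mapk3 lower (-0.59 ± 0.11; limma adjusted p = 2.42e-12, 1.24e-07 and 6.04e-05).

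Activity-regulated effector genes are the downstream end of this response. Of 16, limma called 7, 6, 6 and 7 higher and 3, 2, 3 and 3 lower in hypothalamus in the 4 states, beside the same shares of all genes (16%, 14.3%, 13.9% and 17.5% higher, and 15.1%, 13%, 12.7% and 15.4% lower). Those with the smallest p in sham air were both higher. They were Nptx2, which encodes a pentraxin of excitatory synapses, at a log2 difference of 2.46 ± 0.16 and the granin Scg2 at 0.82 ± 0.10 (limma adjusted p = 6.81e-13 and 2.01e-07). The lower ones in sham air were led by Crh at -1.21 ± 0.28 (limma adjusted p = 0.00131). For ozone, 1 of 16 was called in hypothalamus, beside 1.59% of all genes in sham rats and 1.27% averaged over operations. Bdnf, the neurotrophin gene, fell by 0.65 ± 0.13 in sham rats, from 151 ± 4.51 in air to 96.7 ± 12.8 in ozone (limma adjusted p = 0.0170), and by 0.49 ± 0.09 averaged over operations (0.0176). The sham call was lost without sham air 1 (limma adjusted p = 0.0507) or 3 (0.0615) and without sham ozone 17 (0.0623), 19 (0.0524) or 20 (0.0598), in a range of 0.000494 to 0.0623 over the alternatives. The averaged call was lost without the libraries over 2000 liver RPM (0.0633; 0.000691 to 0.0633). None of the 16 was called in brainstem or in ADREX hypothalamus for ozone. Of the 23 upstream genes, 1 was called within a tissue: Elk3, a ternary complex factor also expressed in endothelium. It stood at 285 ± 59.1 in ADREX and 149 ± 29.9 in sham hypothalamus after ozone, where 2.24% of all genes were called. The log2 difference was 0.93 ± 0.15 (limma adjusted p = 0.00179). The 3 endothelial markers summed to 1020 to 1211 in these ADREX and 863 to 1012 in these sham libraries, and their part in the Elk3 difference was not tested.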

How the data were processed

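Selected mRNA from 32 brainstem and hypothalamus samples was sequenced on an Illumina NextSeq 500, per the labels' protocols. The submitters' processing notes name Partek, DESeq2 and the build rn6, without roles or versions; no source used here names the aligner or annotation. The signal values, as deposited, are normalized counts per gene, and how the authors scaled them is not stated. Of 722784 values, 100% were whole multiples of a library's step within 0.001, which gave back read counts of 6.44 to 12.4 M per library; count error is large for members with under 30 reads.

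Values were tested as log2(value + 1), a scale that understates fold changes of low genes, with limma 3.58.1 (trended variance, R 4.3.3) on genes with a mean of at least 10, with 4 group means per tissue or 8 for tissue differences. Benjamini-Hochberg adjustment ran over all genes tested, and adjusted p under 0.05 was the call. edgeR 4.0.16 (quasi-likelihood) and DESeq2 1.42.0 on the recovered counts, other pseudocounts, filters, scalings and weights, and each library left out were alternatives, as was leaving out libraries over 2000 liver RPM; the limit of 1000 RPM was chosen after seeing the data. The fits were tested on simulated data in which all genes had the same set spread beyond counting error, which was not matched to the members. All listed members are named. Of other lists, the called genes that led by rank are named, and Crh as the first lower effector gene in sham air. Likeness names the 5 highest r. Members and lists were chosen with earlier results of these data known. Expression of Ier2 was not analysed here.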

Additional observations from a re-analysis of the deposited data

Results flagged for a closer look

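Of 72 groups of 4 libraries (9 members in 8 groups), 5 held a library set apart from the other 3 by more of the group's range than Dixon's 95% critical value allows; chance flags about 1 in 20 groups. Fos was high in brainstem ADREX air 65 (76.2 normalized counts), where the other 3 lay at 53.0 to 53.8. Arc was low in brainstem sham air 2 (40.6, the others 62.1 to 65.3). Npas4 was high in brainstem sham air 3 (14.5) and low in hypothalamus sham ozone 18 (3.93). Egr2 was low in hypothalamus sham air 4 (0.892). Npas4 and Egr2 rest on few reads.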

How the results depend on the processing

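Over 81 results of single members, 2636 alternative values were computed: 2567 kept direction and side of the threshold, 37 lost the call, 32 gained it and 0 reversed. Among 52 results of other listed genes, 32 of 2254 values lost the call and 0 reversed. Limma sample weights called 1 member for ozone in sham brainstem, 1 for ADREX against sham after ozone in brainstem (DESeq2 also 1) and in hypothalamus, 2 for ozone in sham hypothalamus and 4 between tissues in sham ozone. Averaged ozone in hypothalamus gave 1 called member in the report, 0 with no filter or edgeR, and 2 with weights or DESeq2. With a minimum mean of 50, which removes Fosb and Arc, tissue calls were 1 in sham ozone and 2 in ADREX air. Leaving out single libraries gave 0 to 1 for ozone in sham hypothalamus and 0 to 2 averaged. The cause was not tested.

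Over all genes, calls with one library left out were 73 to 272 for ozone in sham brainstem (141 with all), 197 to 444 for ADREX against sham there after ozone (352), 115 to 334 for ozone in sham hypothalamus (230), 198 to 584 for ADREX against sham there after ozone (325), and 23 to 88 (47) and 69 to 207 (184) for averaged ozone in brainstem and hypothalamus. Interaction calls were 18 to 47 (29) and 15 to 37 (20). Other settings gave 127 to 496, 148 to 760, 163 to 886, 161 to 1011, 32 to 243, 94 to 591, 23 to 94 and 19 to 90 in the same order. ADREX against sham in air gave 0 to 16 in brainstem and 0 to 15 in hypothalamus. Tissue calls in ADREX ozone were 2643 to 5089 (4793).

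Library numbers are shared between tissues, but over 16 such pairs deviations correlated at -0.53 to 0.61, 7 were over 0.1 and 0 libraries correlated best with their own number. The number was therefore not taken as a pairing, and the main tissue tests are unpaired. These correlations cannot decide whether a shared number is the same rat, since 2 tissues of a rat need not deviate alike. Liver transcripts peaked at the same number in both tissues in sham air (2) and sham ozone (18), but not in ADREX air or ADREX ozone. With the library number as a replicate block in limma, Fos in ADREX air (adjusted p = 0.0421), Egr1 in sham ozone (0.0406) and Nr4a1 in ADREX air (0.0444) and ADREX ozone (0.0287) passed between tissues.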
